A study of Mus musculus with 2 samples.

Results

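The Ly6 family surface proteins described here are Ly6g, Lypd8, Ly6d and Ly6e in 1 array of grafted small intestinal epithelium and 1 array of control colonic epithelium of the mouse. They were chosen by name as 5 genes, and each was represented by the brightest probe set that the platform annotation assigns to a single gene. This gave values for 4 of the 5 members, out of 17305 genes measured in all. Ly6a was not analysed here, so the repair-associated pair of Ly6a and Ly6d was represented by Ly6d alone.

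The graft came from small intestinal cells of EGFP-transgenic mice of C57BL6 background. The cells had been grown for 7 days as organoids, which are epithelial cultures that contain stem cells, and had then been placed in the colonic lumen of C57BL6 recipients. The grafted epithelium was collected 4 weeks after transplantation, and the control was colonic epithelium of a C57BL6 mouse. Both were cut out by laser microdissection. Per the series' design text, the graft specimen and the colon specimen with the best RNA integrity were put on arrays, so the differences have no replicates behind them and no test of the condition was possible. The labels give no age and name no ungrafted small intestine, so the tissue of origin and the grafting cannot be told apart. Both arrays carried the signals of epithelium: 12 of 12 general epithelial genes reached the median level, with the keratin Krt8 at 11.98 in grafted and 11.74 in colonic epithelium on the log2 scale.

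Ly6 proteins are small surface proteins with a three-finger fold held together by disulphide bridges, and most of them are tied to the outer membrane leaflet by a glycosylphosphatidylinositol (GPI) anchor. A large group of their genes lies side by side on mouse chromosome 15, and relatives of the same fold, the uPAR family, lie elsewhere. In the gut, Lypd8 is known as a heavily glycosylated protein of the colonic surface that binds flagellated bacteria and keeps them away from the epithelium. Ly6a, also called Sca-1, is used as a marker of regenerating and fetal-like epithelium, and Ly6g is best known as the surface marker of mouse neutrophils.

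The promoter windows of Ly6g and Lypd8 are shown because these were the members for which windows were found. Both also differed by 2-fold or more between the arrays. Each window covers 250 bases before to 50 bases after an annotated transcript start, on the plus strand of GRCm38.p6, as given by RefSeq. RefSeq windows were matched for 2 of the 5 members, each with a second start that is not printed. The Ly6g window is chr15:75155011-75155310 and the Lypd8 window is chr11:58378782-58379081, and capitals mark the motif matches described after them.
Ly6g: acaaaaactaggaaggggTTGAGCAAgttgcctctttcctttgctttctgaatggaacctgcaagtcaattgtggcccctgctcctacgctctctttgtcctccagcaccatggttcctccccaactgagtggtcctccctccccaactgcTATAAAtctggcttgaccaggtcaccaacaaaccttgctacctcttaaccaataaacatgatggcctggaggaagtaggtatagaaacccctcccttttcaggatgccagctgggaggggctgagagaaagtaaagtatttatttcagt
Lypd8: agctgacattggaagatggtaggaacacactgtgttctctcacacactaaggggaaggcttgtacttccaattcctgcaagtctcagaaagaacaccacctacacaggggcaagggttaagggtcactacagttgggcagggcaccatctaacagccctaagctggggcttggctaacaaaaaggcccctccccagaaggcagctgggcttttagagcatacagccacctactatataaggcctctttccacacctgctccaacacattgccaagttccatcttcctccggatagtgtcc
Searched on both strands were the TATA box TATAAA, the CDX-type motif CATAAA, the HNF4-type motif CAAAGTCCA and the C/EBP-type motif TTGCNNAA, none of which overlaps another in these windows. The Ly6g window held 1 match to the TATA box letters, whose first base lay at position -99 from the start, and 1 C/EBP-type match at position -232. At the second Ly6g start, the TATA box letters lay at -167 and there were 0 C/EBP-type matches. The TATA box position and the C/EBP-type match thus depend on the start chosen. The Lypd8 window held 0 matches to the letters of any of the motifs. It does hold the letters tatataag, which resemble the TATA box but are not counted by this search. Variant spellings were not searched, so the windows are not shown to differ in having a TATA box. Over all 32851 windows of this length, 13.6% held a TATA box of these letters, 11.9% the CDX-type motif, 0.475% the HNF4-type motif and 10.8% the C/EBP-type motif. These matches describe the letters of the windows and say nothing about binding. The GC content was 48.7% for Ly6g and 51.3% for Lypd8, beside a median of 52.7% over all windows.

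Ly6g was far lower in the graft than in the colon. On the graft array it had a log2 level of 5.42 and on the colon array one of 10.84, a difference of -5.42 and thus 42.7-fold lower in the graft. The difference ranked 6 from the lowest among the 9392 genes whose higher value reached the median of all gene values, 5.48. On the graft array 49.4% of probe sets had a lower signal than that of Ly6g, whereas on the colon array 98.1% did. The graft value lay below the median level, and the values carry no detection calls, so it cannot be separated from background and the fold may be larger than the one measured.

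Lypd8 was bright on both arrays and lower in the graft. Its log2 level was 11.45 in grafted and 12.49 in colonic epithelium, a difference of -1.04, or 2.05-fold lower in the graft. Its signal exceeded 99.3% of probe sets on the graft array and 99.96% on the colon array. The difference ranked 501 from the lowest of 9392 and lay just past 2-fold. In bulk RNA such as this, fewer cells that express a gene and less RNA of it per cell cannot be told apart.

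Ly6d, which marks cells on the way to the B cell lineage and is also a surface protein of squamous keratinocytes, was slightly brighter in the graft. Its log2 level was 5.67 in grafted and 5.11 in colonic epithelium, a difference of 0.56 or 1.47-fold. The colon value lay below the median level, and the difference was 842 from the highest among the 9392 genes. Ly6e, an interferon-inducible protein present on many cell types, had log2 levels of 8.98 in grafted and 9.20 in colonic epithelium. Its difference of -0.22 was not far from the middle in size, since 41.0% of genes had a smaller one. Neither Ly6d nor Ly6e was 2-fold apart.

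**Figure D1:**
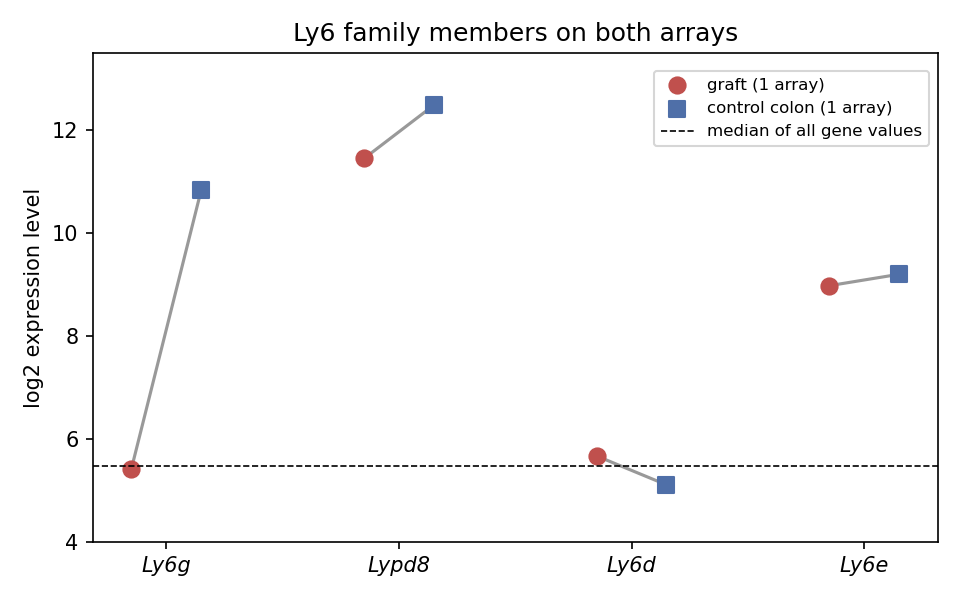
The log2 expression level (vertical axis) of Ly6g, Lypd8, Ly6d and Ly6e on the graft array (circles) and the control colon array (squares), with 1 array per group and the median of all gene values as a dashed line. Ly6g is at 5.42 in grafted and 10.84 in colonic epithelium, whereas Ly6e is at 8.98 in grafted and 9.20 in colonic epithelium.

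Of the 4 measured members, 2 were lower in the graft by 2-fold or more, as were 5.68% of the 9392 genes. None of the 4 was higher by 2-fold, as were 3.55% of the genes. At 4-fold the count was 1 lower, with 1.37% of genes lower and 1.1% higher.

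The colonic genes Ly6g and Lypd8 differed from the repair-associated Ly6d in direction. The mean difference of Ly6g and Lypd8 was -3.23, against 0.56 for Ly6d, and the mean minus Ly6d was -3.79. These sizes rest in part on the graft value of Ly6g and the colonic value of Ly6d, both below the median level and not separable from background. Most of this came from Ly6g: Ly6g minus Ly6d was -5.98, and Lypd8 minus Ly6d was -1.60. The colonic genes also stood apart from each other, with Ly6g minus Lypd8 at -4.38. Different probe sets of 1 gene give the only technical error in the table. Over 586 genes with 2 probe sets at the median level, their differences disagreed with an SD of 0.48, and 95.7% agreed within 1 on the log2 scale. The gaps between these genes were all larger than that SD, while Ly6e minus Ly6d, at -0.78, was closer to it. The difference of Ly6d itself was 1.17 times that SD. That SD is the one expected for a gap between 2 differences, so it is wider than the error of 1 difference. The direction of Ly6d is still weakly determined, with 1 probe set and a colonic value below the median level. This SD leaves out variation between animals, and none of the members had a second probe set of its own.

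**Figure D2:**
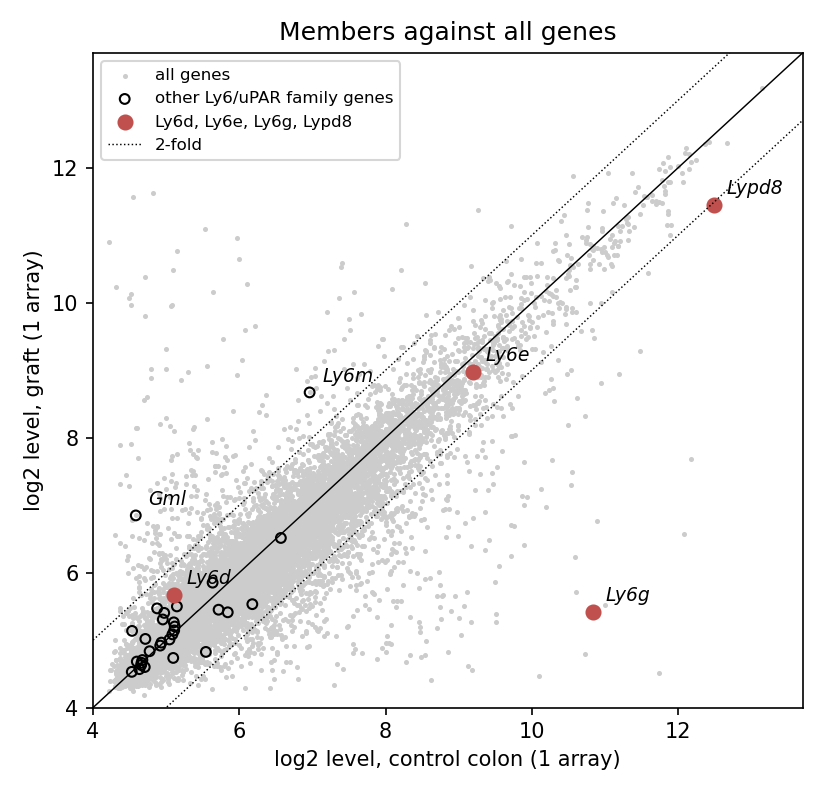
Log2 level of each gene on the graft array (vertical axis) against the control colon array (horizontal axis), with all genes in grey, the 4 measured members filled and the other measured Ly6/uPAR family genes as open circles; dotted lines mark 2-fold. Ly6g lies far below the diagonal, Lypd8 lies at the lower 2-fold line, and Gml and Ly6m lie above the upper line.

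The wider family differed in both directions. Of 44 listed Ly6/uPAR genes, 34 were measured and 13 reached the median level on at least 1 array. Of these 13, 2 were higher in grafted epithelium by 2-fold or more and 2 were lower by as much. Over all 9392 genes at that level, 3.55% were higher and 5.68% lower by 2-fold or more. These shares also stand beside the list counts given further on. The median difference of the 13 was -0.22, beside -0.047 over all 9392 genes at that level. Some of the 13 reached the level through 1 array alone, such as Ly6g through the colon and Gml through the graft, so this median depends on the filter. Over all 34 measured family genes the median was 0.014, with 17 above 0 and 13 below, beside a median of 0 over all 17305 genes. The other 21 genes stayed below the median level on both arrays, with differences between -0.36 for Ly6f and 0.60 for Cd59a, an inhibitor of the complement membrane attack complex.

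The family genes that were higher in the graft by 2-fold or more, Gml and Ly6m, lie in the chromosome 15 group with Ly6d, Ly6e and Ly6g. Gml, a GPI-anchored relative, had a log2 level of 6.85 in grafted and 4.58 in colonic epithelium. The colonic value lay below the 20th percentile of that array, 4.74, where signal cannot be separated from background, so the measured 4.80-fold does not fix the size of the difference. The same holds for the colonic values of Alpi, S100a8 and S100a9 given further on. A second probe set that the annotation gives to both Gml and its relative Gml2 was at 4.71 in grafted and 4.43 in colonic epithelium, and so did not show a difference of that size. Ly6m had a log2 level of 8.67 in grafted and 6.96 in colonic epithelium, 3.27-fold higher in the graft. Ly6m and Ly6g, both in this group, thus differed in opposite directions.

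The remaining genes of that group had smaller differences. Both probe sets assigned jointly to Ly6c1 and Ly6c2, near-identical markers of monocytes and other leukocytes, were lower in the graft. One was at 6.36 in grafted and 7.36 in colonic epithelium, which is 2.01-fold lower, and the other was at 5.86 in grafted and 6.48 in colonic epithelium, a difference of -0.62. Ly6g2, the next gene after Ly6g in chromosome order among those measured, was at 6.51 in grafted and 6.57 in colonic epithelium. Lynx1, a modulator of nicotinic acetylcholine receptors, had a difference of -0.72, and Gpihbp1, which carries lipoprotein lipase across capillary endothelium, had one of -0.43. Slurp1, Slurp2, Lypd2, Psca, Ly6h, Ly6i, Ly6k and Ly6f stayed below the median level on both arrays. Over the 18 genes of the chromosome 15 group with a probe set of their own, including Ly6a2 and Ly6g6g, which were added after the values were seen, the median difference was 0.052. Ly6 genes of this group resemble each other in sequence, so transcripts of one may bind probes of another and each value is uncertain as that of a single gene.

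**Figure D3:**
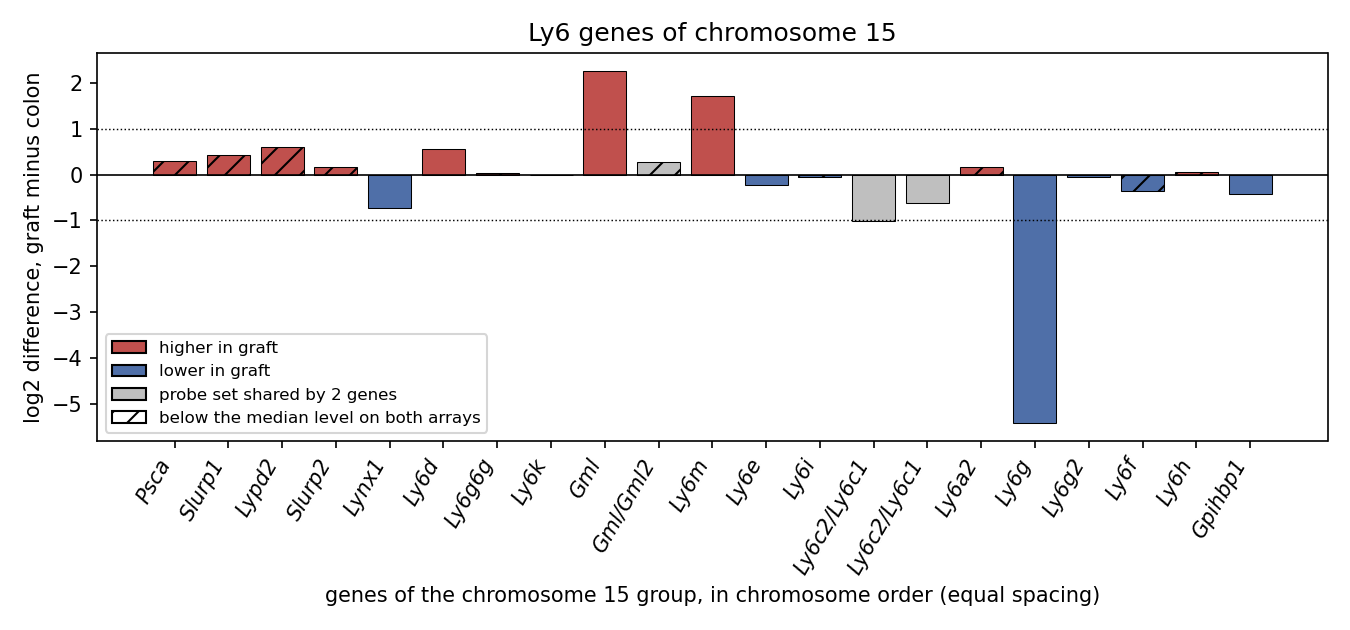
Log2 difference, graft minus colon (vertical axis), for Ly6 genes of chromosome 15 in their order along the chromosome at equal spacing; grey bars are probe sets shared by 2 genes, hatched bars are genes below the median level on both arrays, and dotted lines mark 2-fold. Ly6g reaches -5.42, whereas Gml and Ly6m reach 2.26 and 1.71.

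Family genes on other chromosomes had smaller differences apart from Lypd8. Lypd9, on chromosome 11 like Lypd8, lay near the lower end at 5.20 in grafted and 5.12 in colonic epithelium. On chromosome 17, 1 of 5 measured genes reached the median level, Ly6g6e, at 5.53 in grafted and 6.18 in colonic epithelium. On chromosome 7, Plaur, the urokinase receptor, had a difference of 0.35 and Spaca4, a sperm membrane protein, one of -0.27. Lypd1, on chromosome 1, had a difference of 0.22. Lypd3, Lypd4, Ly6k and Cd59b had exactly equal values on both arrays, as did 12.1% of all probe sets.

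The difference of Ly6g was of the size seen in many colonic surface genes, and that of Lypd8 was smaller. Of 22 genes of colonic surface and absorptive cells, 21 reached the median level. Of these, 16 were lower by 2-fold or more and 1 was higher, beside 5.68% and 3.55% of the 9392 genes. The median over those measured was -4.07. With predicted and clone-named genes left out, the genes whose pair of levels was closest to that of Ly6g were Saa1, Abcb1a and Tgm3. Their Euclidean distances were 0.19, 0.37 and 0.63 over the 2 arrays, and Saa1 and Tgm3 are also in that list. That list was chosen with earlier results of these data known, so its median and this overlap are descriptions and no independent support. The difference of Lypd8 was of the size of that of Car4, a GPI-anchored carbonic anhydrase of the brush border, at -1.15. The closest pairs of levels to Lypd8 were those of Mptx1, Rps15 and Rpl36, at distances of 0.54, 0.63 and 0.63, with differences between -0.50 and -0.17. For Ly6e the closest were Ndufb9, Fuca1 and Rap1b, and for Ly6d they were Thg1l, Cd68 and Mir24-2, all within 0.072. Such likeness includes how bright each probe set is and, over 2 arrays, is a description.

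The mucus and surface defence genes that work beside Lypd8 went both ways. Of 14 that reached the median level, 6 were higher by 2-fold or more in the graft and 3 lower. The shares over all 9392 genes were 3.55% higher and 5.68% lower. Zg16, a goblet cell protein that binds Gram-positive bacteria, had a log2 level of 6.57 in grafted and 12.08 in colonic epithelium. Clca1, a goblet cell mucus protein, was at 11.95 in grafted and 11.83 in colonic epithelium. Retnlb, a bactericidal goblet cell protein, was at 10.07 in grafted and 4.50 in colonic epithelium. Its colonic value lay below the 20th percentile of that array, so the size of the difference is not determined.

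The repair-associated genes listed with Ly6d went both ways, and the 4 largest differences were lower in the graft. Of 15 that reached the median level, 3 were higher by 2-fold or more in the graft and 4 lower, with a median of 0.45. Among all 9392 genes 3.55% were higher and 5.68% lower by as much. At 4-fold, 0 of the 15 were higher and 4 lower, beside 1.1% higher and 1.37% lower of the 9392 genes. Those 4 were the membrane-binding annexins Anxa3 and Anxa1, at -2.93 and -2.63, Il1rn at -2.27 and F3 at -2.13. Il1rn reached the median level through the colon alone. The keratin Krt23 and the TWEAK receptor gene Tnfrsf12a had differences of 1.62 and 1.54. Clu, a marker of a revival stem cell state, stayed below the median level on both arrays, with a difference of 0.077. Over all 19 measured genes of the list, Ly6d included, the median was 0.23, beside 0.56 for Ly6d.

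Interferon-stimulated genes were set beside Ly6e, which belongs to that response. Of 14 that reached the median level, 2 were higher by 2-fold or more in the graft and 0 lower, with a median of 0.56. Among all 9392 genes 3.55% were higher and 5.68% lower by as much. Oasl2 and Iigp1, the list genes counted as higher, reached the median level through the graft alone. Both the count and the median of 0.56 thus depend on the filter. All 20 measured genes of the list were above 0, from 0.0095 for Mx1 to 2.60 for Iigp1, an interferon-induced GTPase. The median over these 20 was 0.52. Ly6e, at -0.22, lay below the lowest of these 20.

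Genes that make and attach the GPI anchor differed little. Of 22 measured synthesis and transfer genes, all of which reached the median level, 0 were higher by 2-fold or more and 1 was lower, with a median of 0.023. That gene was Pigh, a subunit of the enzyme of the first step, at 5.97 in grafted and 7.08 in colonic epithelium. Of the remodelling genes, Pgap1, which removes an acyl chain from the inositol of the anchor, had log2 levels of 8.40 in grafted and 5.91 in colonic epithelium, 5.62-fold higher in the graft. Other GPI-anchored proteins of gut epithelium went both ways, with 3 of 14 higher by 2-fold or more and 2 lower. The alkaline phosphatase Alpi had a difference of 5.60 and the complement regulator Cd55 one of 1.88, while the ephrin Efna1 had one of -1.34.

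**Figure D4:**
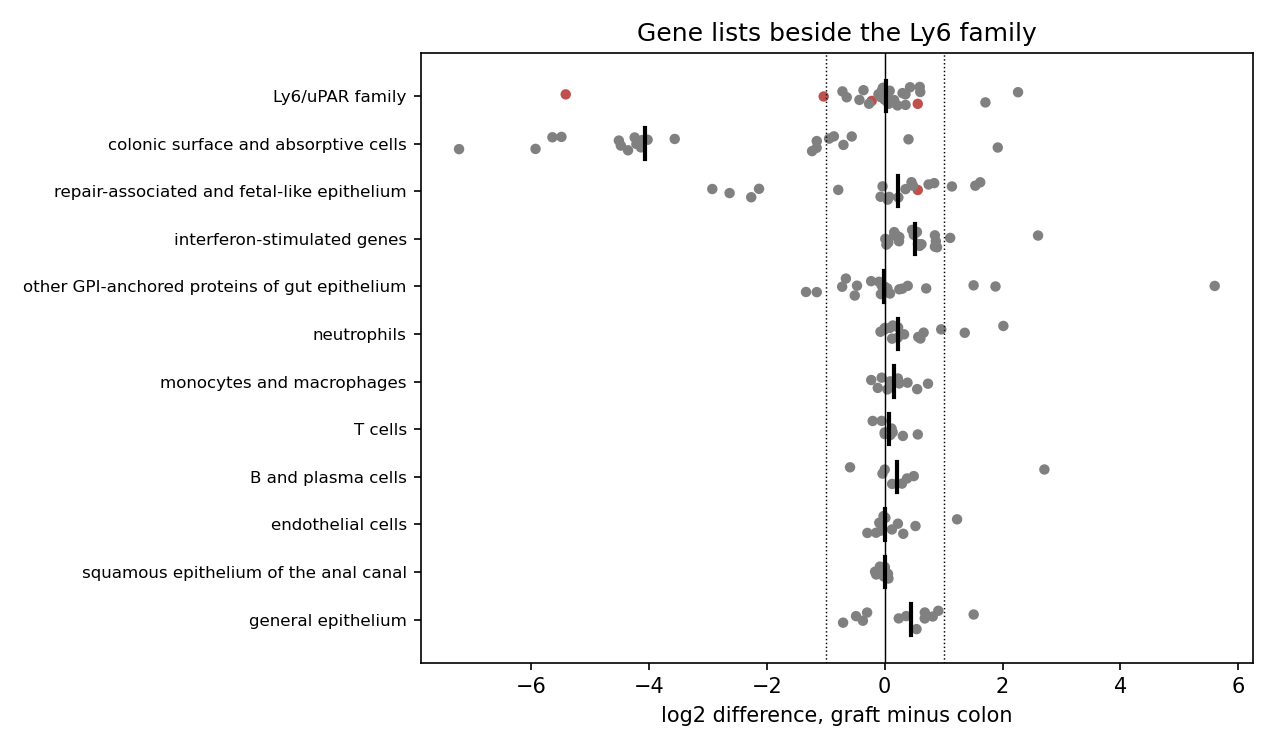
Log2 difference, graft minus colon (horizontal axis), of every measured gene in 12 lists, with a black bar at each list's median, the members in red and dotted lines at 2-fold; vertical scatter within a row has no meaning. The colonic surface list has its median at -4.07, the leukocyte, endothelial and squamous lists have medians between 0 and 0.23, and Ly6g lies at -5.42.

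Markers of other cells that carry Ly6 proteins were measured in the same samples, most of them near the lower end of the signal. Of 15 neutrophil genes, 12 stayed below the median level on both arrays, and of the other 3, 2 were higher by 2-fold or more in the graft and 0 lower. S100a8 was at 6.55 in grafted and 4.54 in colonic epithelium, and S100a9 at 6.06 in grafted and 4.70 in colonic epithelium. Both reached the median level through the graft alone, so the count of 2 higher depends on the filter. The third gene to reach the median level, Cd177, was at 6.49 in grafted and 5.83 in colonic epithelium. Over all 15 neutrophil genes, 12 had differences above 0, 1 below 0 and 2 were equal on both arrays. Those equal were the granule genes Elane and Camp, dim on each array at 4.90 and 4.95. The summed linear signal of the neutrophil list was 626 in grafted and 415 in colonic epithelium. If all 15 genes were at the 20th percentile of their array, the sums would be 404 in grafted and 400.0 in colonic epithelium, so the colonic sum can hardly be separated from background. The T cell, endothelial and squamous lists had 9 of 10, 9 of 11 and 9 of 11 genes below the median level on both arrays, and their sums are not read as amounts of cells. T cell genes summed to 351 in grafted and 332 in colonic epithelium. Endothelial genes summed to 405 in grafted and 349 in colonic epithelium, and squamous genes of the anal canal to 327 in grafted and 331 in colonic epithelium.

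Of the 8 measured B and plasma cell genes, 4 reached the median level. Of these, 1 was higher by 2-fold or more in the graft and 0 lower. That gene, Igha, the immunoglobulin A heavy chain, was at 8.27 in grafted and 5.56 in colonic epithelium. Ighm, the immunoglobulin M heavy chain, had a difference of -0.59, Jchain, which joins immunoglobulin subunits, one of 0.29, and the B cell factor Pax5 lay near the lower end at 4.96 on both arrays. The list summed to 963 in grafted and 654 in colonic epithelium, a sum that includes Igha, the gene with the largest difference of the list. Monocyte and macrophage genes summed to 636 in grafted and 571 in colonic epithelium, and fibroblast and smooth muscle genes to 771 in grafted and 1054 in colonic epithelium. None of these sums is read as an amount of cells. The part of these cells in the values of the members was not tested.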

How the data were processed

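The table deposited by the authors gives log2 expression levels of 24074 probe sets on each of 2 arrays. Per the labels' protocols, 4.33 ng of total RNA per sample was amplified and labelled with biotin. Software, background correction, normalization and genome build were not given in the sources used here. That the values are log2 was read from their range, 4.19 to 13.37 on the graft array and 4.22 to 13.46 on the colon array, with medians of 5.44 and 5.43. The arrays are single-channel levels that were not centred per gene (r = 0.94 over all probe sets). Whether each array was centred is unknown.

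Gene names came from the platform's annotation: 18904 had 1 gene symbol, 1330 several and 3840 none. Of the first, 18837 were found in RefSeq's GRCm38.p6 table. The brightest probe set by its mean stood for a gene. Genes whose higher value reached the median, 5.48, were counted at 2-fold and 4-fold. A gene can pass this filter through the array where it is high, so the counts and medians of such genes depend on it. Differences are graft minus colon, and no test was made because there is 1 array per group, whose number limits the precision. The members and gene lists were chosen with earlier results of these data known. Named genes were the members, the measured family list, the genes of each other list with the largest differences or highest levels, and the 3 nearest genes per member. Predicted and clone-named genes were left out of the search for nearest genes. Chosen with their values already seen were Clu, Mx1, Elane, Camp, Pax5, Krt23, Tnfrsf12a, Ly6a2 and Ly6g6g. The planned pair of Ly6a and Ly6d was reduced to Ly6d. Counting was tested on simulated data. Python 3.11.15, pandas 2.3.3 and numpy 2.4.6 were used.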

Additional observations from a re-analysis of the deposited data

How the results depend on the processing

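There were 25 recomputed values over 5 settings. The differences kept their direction and moved by less than the probe set SD of 0.48, and the counts stayed within 1.5 times. The settings were the mean of all probe sets of a gene, quantile normalization, median centring, a filter at the 20th percentile and no filter. Ly6g ranged from -5.42 to -5.35, Lypd8 from -1.05 to -1.04, Ly6e from -0.23 to -0.15, and the colonic genes minus Ly6d from -3.79 to -3.76, while Ly6d stayed at 0.56. The number of genes past 2-fold ranged from 842 to 870, and 4 family genes passed under every setting. The second brightest probe set could not be used because 0 members have one, and averaging probe sets therefore changes no member. Median centring shifts all genes of an array alike, so it cannot change the colonic genes minus Ly6d. Those recomputed values were fixed in advance and say nothing about stability. No paired analysis was possible because each group has 1 array, and for the same reason no replicate could be left out. Low signals near background limit the values of Ly6d in the colon and Ly6g in the graft.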
